A study of Mus musculus with 9 samples.

Results

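The striated muscle myosin light chains studied here are encoded by Mylpf, Myl1, Myl4, Myl2, Myl3 and Myl7, and they were followed over 3 kinds of mouse cells. All probe sets that the array annotation pairs with one of these 6 symbols alone were taken, which gave 9 probe sets for 6 genes out of 18193 genes with such a probe set. All 6 genes passed the filter on low values that left 12559 genes for testing, and each passed it through the group in which its level was highest. The 9 arrays fall into 3 groups of 3, called biological replicates in the labels.

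The first group, CiCM, holds cardiomyocyte-like cells induced chemically. Mouse embryonic fibroblasts were treated with 10 µM CHIR99021, 10 µM RepSox, 50 µM forskolin, 0.5 mM VPA, 5 µM Parnate and 1 µM TTNPB, and clusters that beat were picked on day 24, so that a sample can hold several cell types. Cardiomyocytes (CM) were isolated from mouse hearts, whose strain, age and chamber are not given in the sources used here. The third group was of fibroblasts (MEF) from C57BL/6 embryos at embryonic day 13.5. Values are log2 signals of a probe set, where a difference of 1 is a doubling, and levels of different probe sets were not set against each other. The median of the whole table was 6.58, and signals far below it are noisy.

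The myosin of muscle is built from heavy chains, and the neck of each heavy chain carries an essential and a regulatory light chain. The light chains stiffen the lever arm and tune the speed and calcium sensitivity of contraction, and the regulatory chain is phosphorylated by myosin light chain kinases. Striated muscles use different pairs: Mylpf (regulatory) with Myl1 (essential) in fast skeletal fibres, Myl2 with Myl3 in the ventricle and in slow skeletal fibres, and Myl7 with Myl4 in the atrium. Myl4 is also the essential chain of embryonic skeletal muscle and of the fetal heart.

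Promoter sequence is shown for Mylpf, Myl1, Myl3 and Myl7. Each has 1 start site listed in the source used, with a match to a searched muscle motif before it. A gene can have start sites that are not listed there, and those were not searched. These genes were chosen for their matches and not for moving together, and the other 2 members are described after them. The 250 bases before the annotated start are given 5′ to 3′ on the gene's own strand, from RefSeq on GRCm38.p6, and all 6 members had an entry (7 start sites). Capitals mark matches, on either strand, to the E-box CANNTG, which myogenic factors bind, to the CArG box, which serum response factor binds, or to the MEF2 box.
Mylpf, chr7:127211358-127211607, plus strand: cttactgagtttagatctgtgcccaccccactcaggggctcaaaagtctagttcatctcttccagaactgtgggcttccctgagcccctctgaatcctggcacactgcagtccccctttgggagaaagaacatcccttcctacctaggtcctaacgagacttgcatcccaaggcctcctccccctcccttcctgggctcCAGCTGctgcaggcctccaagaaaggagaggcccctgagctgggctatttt
Myl1, chr1:66945057-66945306, minus strand: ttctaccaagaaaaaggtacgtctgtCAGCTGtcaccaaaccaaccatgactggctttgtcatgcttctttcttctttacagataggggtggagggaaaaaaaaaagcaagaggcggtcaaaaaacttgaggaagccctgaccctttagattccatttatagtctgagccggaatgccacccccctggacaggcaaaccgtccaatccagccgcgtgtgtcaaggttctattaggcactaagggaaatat
Myl3, chr9:110763428-110763677, plus strand: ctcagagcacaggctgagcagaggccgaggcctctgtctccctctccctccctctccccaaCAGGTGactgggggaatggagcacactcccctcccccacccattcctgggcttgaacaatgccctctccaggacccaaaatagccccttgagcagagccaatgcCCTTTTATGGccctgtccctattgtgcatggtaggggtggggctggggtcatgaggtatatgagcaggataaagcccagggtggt
Myl7, chr11:5898783-5899032, minus strand: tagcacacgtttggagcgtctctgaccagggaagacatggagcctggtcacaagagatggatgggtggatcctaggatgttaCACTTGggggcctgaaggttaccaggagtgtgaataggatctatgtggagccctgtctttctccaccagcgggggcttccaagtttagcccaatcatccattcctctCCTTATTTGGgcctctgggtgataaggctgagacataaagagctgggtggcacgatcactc

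Each of the 4 windows holds 1 E-box. In Mylpf and Myl1 it reads CAGCTG, a form found in 13% of all 32851 promoter windows of this length, whereas any E-box is found in 66.2%. The CAGCTG of Mylpf lies 51 to 46 bases before the start and that of Myl1 224 to 219 bases before it. Myl3 and Myl7 each hold 1 CArG box, 85 to 76 and 61 to 52 bases before the start, a motif found in 1.47% of all windows. No window of the 6 genes holds the MEF2 box (2.92% of all windows). The window of Myl4 holds none of the searched motifs, and the 2 windows of Myl2 hold E-boxes only, one of them CAGCTG. These are matches of letters, and no binding was measured.

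The arrays of a group correlated at r of 0.965 to 0.969 in CiCM, 0.930 to 0.953 in CM and 0.971 to 0.975 in MEF over the tested genes, which are not independent replicates. The labels of CiCM and CM were set against markers. Of 7 cardiomyocyte markers, CiCM exceeded MEF in 5, without Ryr2 and Nkx2-5, and was below CM in all 7. Of those 5, Tnni3 and Pln had CiCM means under the median of the table (5.77 and 6.52). Pln differed from MEF by only 0.84 with 32 added to the linear signals. Myh6 had a CiCM mean of 7.13, against 15.72 in CM. Only Tnnt2 and Actc1 were bright in CiCM, with means of 14.50 and 13.66, against 15.64 and 15.54 in CM. The shares of all tested genes were 11.6% (higher, CiCM against MEF) and 19% (lower, CiCM against CM). Whether these marker signals came from cardiac cells was not tested. Of 9 fast skeletal markers other than the light chains, all 9 were higher in CiCM than in CM, and their summed linear signal was 129206 to 145867 in CiCM, 872 to 1419 in CM and 318 to 461 in MEF. Fibroblast markers summed to 106369 to 111159 in CiCM, 36425 to 47906 in CM and 95329 to 97341 in MEF, and 7 embryonic and perinatal skeletal markers other than Myl4 to 61551 to 69850 in CiCM, 175 to 235 in CM and 5449 to 5819 in MEF. The MEF sum of the latter came mostly from Ncam1, at 12.38 to 12.47 in MEF and 11.31 to 11.66 in CiCM. The other markers of that list were under the median of the table on every MEF array. Signals of the 4 slow skeletal markers other than Myl2 and Myl3 were summed too. They came to 64798 to 68637 in CiCM, 29024 to 36947 in CM and 209 to 360 in MEF. Of these 4, 3 were called higher in CiCM than in CM, as were 16.5% of all tested genes. The CM sum came mostly from Tnnc1, which was not called there. In CM, all 6 endothelial markers were higher than in MEF, with a summed signal of 12607 to 14455 in CM against 437 to 674 in MEF. In such bulk samples, fewer cells of a type and less RNA per cell cannot be told apart.

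CM replicate 1 differed from both other CM arrays in its atrial genes, so the light chain differences that involve CM are also given without it. Of 10 tested atrial markers other than Myl4 and Myl7, 9 were highest in CM replicate 1, where 37.3% of all tested genes had their highest CM value. The summed linear signal of the 11 atrial markers on the array was 95826 in CM replicate 1, 10450 in replicate 2 and 8099 in replicate 3, and it was 6221 to 6745 in CiCM and 4162 to 4636 in MEF. The CiCM and MEF sums came mostly from Dkk3, Nr2f1, Nr2f2 and Stard10. Dkk3 was at 11.28 to 11.44 in CiCM, 11.89, 6.68 and 6.32 in CM, and 11.05 to 11.39 in MEF. Of the 4 tested ventricular markers other than Myl2 and Myl3, none was highest in replicate 1, and their summed signal was 27569, 50591 and 42182 in the 3 CM arrays. It was 914 to 1306 in CiCM and 3287 to 3609 in MEF, and it came mostly from Fhl2 on every array. The 7 general cardiomyocyte markers were not highest in replicate 1 either (201321, 291161 and 262496 in sum), so the lower value there was not particular to ventricular genes.

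Mylpf, the fast skeletal regulatory chain, was at 14.83, 14.99 and 14.98 in CiCM, 6.66, 7.19 and 6.75 in CM, and 6.91, 6.68 and 5.65 in MEF. The CiCM arrays lay far above all others, and the CM and MEF arrays overlapped near the median of the table. Mylpf rose in CiCM by 8.52 ± 0.28 over MEF (SE; limma adjusted p = 4.89e-09) and by 8.07 ± 0.28 over CM (limma adjusted p = 7.62e-09), or by 7.96 over CM without CM replicate 1. CM minus MEF was 0.45, with a 95% interval of -0.17 to 1.07 (limma adjusted p = 0.172), and 0.55 without CM replicate 1. Leaving out MEF replicate 1 gave 0.70 (limma adjusted p = 0.0477), which is under the difference of 1 that a call needed, and leaving out MEF replicate 3 gave 0.07.

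Myl1, the fast skeletal essential chain, was at 14.63, 14.76 and 14.72 in CiCM, 13.71, 10.92 and 11.37 in CM, and 4.82, 2.70 and 3.03 in MEF. The 3 groups did not overlap, and CM replicate 1 was the highest CM array. Arrays did not overlap in 68.5%, 75.2% and 67.9% of all tested genes in CiCM against MEF, CM against MEF and CiCM against CM. A lack of overlap was thus the usual outcome. Myl1 was 11.19 ± 0.68 higher in CiCM than in MEF (SE; limma adjusted p = 4.22e-07) and 8.48 ± 0.68 higher in CM than in MEF (limma adjusted p = 1.06e-06). With 32 added to each linear signal, which damps noise in dim MEF signals, these differences were 9.20 and 6.51, and CM exceeded MEF by 7.63 on the deposited scale without CM replicate 1. CiCM exceeded CM by 2.70 ± 0.68 (limma adjusted p = 0.00539), or 6.51-fold, and by 3.56 without CM replicate 1. Myl1 thus rose in CM over MEF, where Mylpf was not called. The difference between these 2 genes was not tested. The probe set of Myl1 has the suffix _a_at, which the array's maker uses for probes shared by several transcripts of a gene, and transcripts were not separated.

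Myl4, the embryonic and atrial essential chain, was at 14.50, 14.70 and 14.54 in CiCM, 14.92, 9.67 and 8.36 in CM, and 6.63, 7.26 and 7.42 in MEF. The CiCM arrays were alike, CM replicate 1 lay just above them, and the other CM arrays lay between CiCM and MEF. Myl4 rose in CiCM by 7.48 ± 1.26 over MEF (SE; limma adjusted p = 0.000612). CM exceeded MEF by 3.88 ± 1.26 (limma adjusted p = 0.0181), or by 1.91 without CM replicate 1 (limma adjusted p = 0.000391), and the call was lost without MEF replicate 1 (3.64, limma adjusted p = 0.0535).

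CiCM minus CM for Myl4 was 3.60 ± 1.26 (SE; limma adjusted p = 0.0283), although the arrays of both groups overlapped. That difference was 5.57 without CM replicate 1 (limma adjusted p = 1.53e-07), but 2.94 and 2.28 without replicate 2 or 3, where it was no longer called (limma adjusted p = 0.102 and 0.110). The call was also lost without any 1 of the CiCM arrays (limma adjusted p of 0.0639 to 0.0691). The CiCM arrays were alike, and most of the spread in the fit was between the CM arrays. A second, dimmer probe set of Myl4 gave 2.71 for CiCM minus MEF (limma adjusted p = 0.0244), 1.80 for CM minus MEF (0.0855) and 0.91 for CiCM minus CM (0.376) when every probe set was tested. It too was highest in CM replicate 1, at 8.38 against 4.25 and 7.12 in the other CM arrays.

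Myl2, the ventricular and slow skeletal regulatory chain, was at 13.41, 13.41 and 13.22 in CiCM, 15.01, 15.60 and 15.40 in CM, and 4.77, 4.02 and 5.89 in MEF. The groups did not overlap, and CiCM lay much closer to CM than to MEF. Myl2 rose in CiCM by 8.46 ± 0.36 over MEF (SE; limma adjusted p = 3.38e-08) and in CM by 10.45 ± 0.36 over MEF (limma adjusted p = 2.69e-09), or by 7.35 and 9.34 with 32 added. Without CM replicate 1, CM exceeded MEF by 10.61. It was lower in CiCM than in CM by 3.97-fold, a difference of -1.99 ± 0.36 (limma adjusted p = 0.000733), and of -2.15 without CM replicate 1.

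Myl3, the essential chain that pairs with Myl2, was at 9.0, 8.87 and 7.96 in CiCM, 15.23, 15.73 and 15.69 in CM, and 3.62, 4.98 and 3.20 in MEF. All CM arrays lay above all CiCM arrays, which lay above all MEF arrays. Myl3 was 4.68 ± 0.42 higher in CiCM than in MEF (SE; limma adjusted p = 6.72e-06), or 3.12 with 32 added. It was 11.62 ± 0.42 higher in CM than in MEF (limma adjusted p = 3.20e-09), or 9.94 with 32 added, and 11.78 without CM replicate 1.

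CiCM was below CM for Myl3 by 123-fold (-6.94 ± 0.42, SE; limma adjusted p = 2.28e-07), with -7.10 without CM replicate 1. The other 2 probe sets of Myl3 differed in the same directions, by 3.06 and 5.35 for CiCM minus MEF, 10.41 and 12.83 for CM minus MEF, and -7.35 and -7.48 for CiCM minus CM. The main probe set (_s_at) and one of the others (_x_at) have suffixes that the maker uses where probes can match other transcripts. The remaining one, without such a suffix, gave the smallest difference from MEF in both comparisons.

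Myl7, the atrial regulatory chain, was at 4.38, 4.86 and 4.74 in CiCM, 15.05, 9.25 and 5.98 in CM, and 4.33, 0.98 and 5.67 in MEF. The CiCM arrays fell within the range of the MEF arrays, all under the median of the table, and the CM arrays were spread over most of the scale. CiCM minus MEF was 1.00 ± 1.90 (SE; limma adjusted p = 0.688), with a 95% interval of -3.22 to 5.21, and 0.12 with 32 added. The spread of CM enters this SE too (SD 4.59, against 2.42 in MEF and 0.25 in CiCM). Without MEF replicate 2 it was -0.34, so its sign rests on that array.

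CM exceeded MEF for Myl7 by 6.43 ± 1.90 (SE; limma adjusted p = 0.0111), or by 3.96 without CM replicate 1 (limma adjusted p = 0.0239) and by 4.6 with 32 added. CiCM minus CM was -5.44 ± 1.90 (limma adjusted p = 0.0276), without overlap between arrays (as in 67.9% of all tested genes), and -4.47 with 32 added. That call was lost without CM replicate 1 (-2.96, limma adjusted p = 0.0793) and without any 1 of the CiCM arrays (limma adjusted p of 0.0596 to 0.0707).

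**Figure D1:**
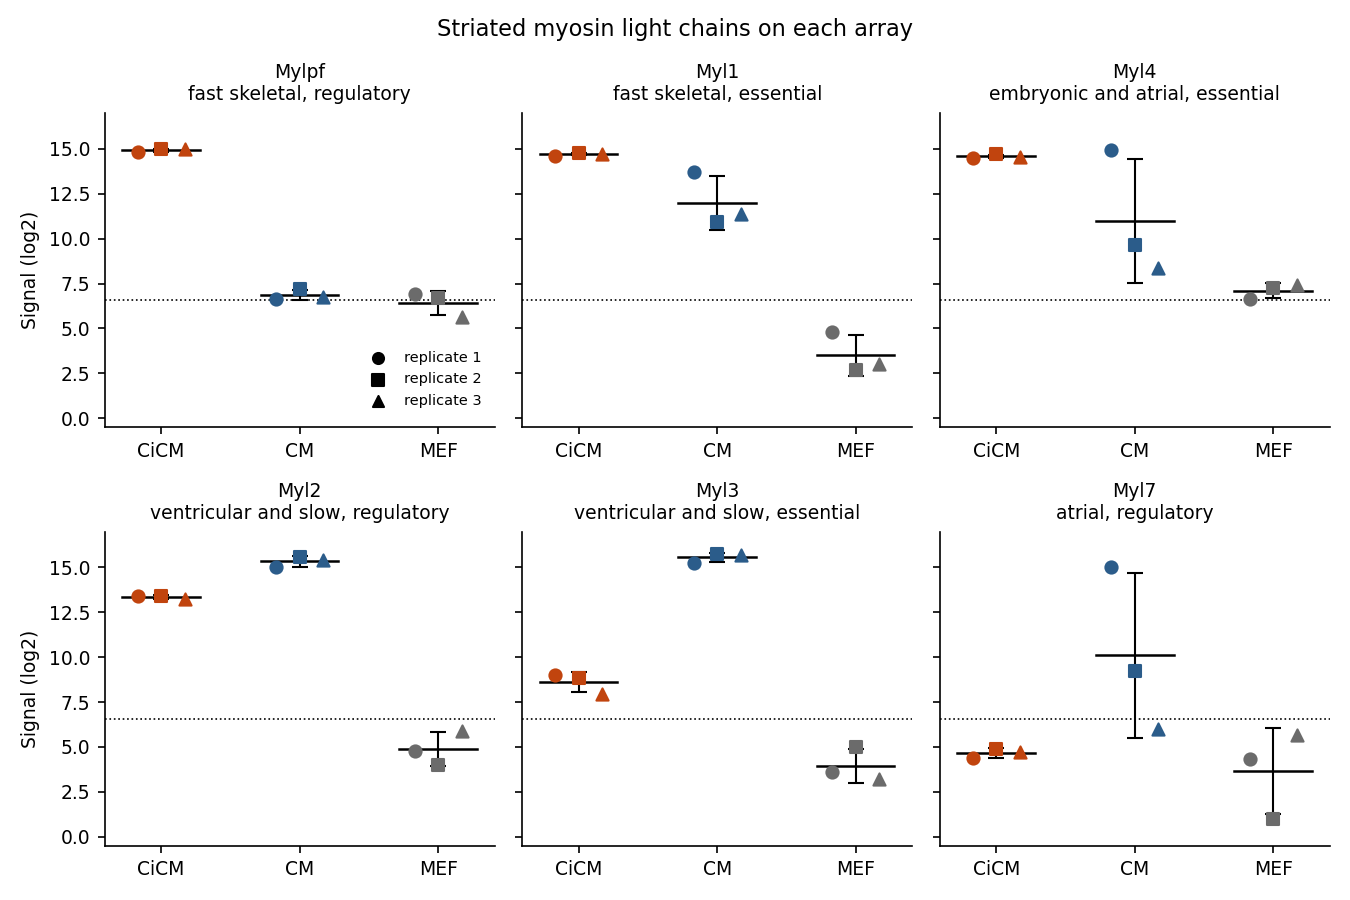
Log2 signal of each striated light chain gene on every array, with the 3 arrays of a group as separate symbols, a bar for the mean and whiskers for the SD; the dotted line is the median of the table, 6.58. Mylpf is high in CiCM alone, Myl2 and Myl3 are highest in CM, and Myl4 and Myl7 spread widely over the CM arrays, with replicate 1 at 14.92 and 15.05.

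Counted over the family in CiCM against MEF, 5 of 6 genes were called higher and none lower, with Myl7 not called, where 11.6% of all tested genes were called higher and 12.2% lower. A call needed both a limma adjusted p below 0.05 and a log2 difference of 1 or more. The median difference of the 6 genes was 7.97, against -0.03 over all tested genes. In CM against MEF, 5 of 6 were called higher and none lower, with Mylpf not called (22.1% of all tested genes higher and 21.8% lower), and the median was 7.46 against -0.03. Both comparisons share the MEF arrays, and each gene passed the filter through its high group.

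In CiCM against CM, 3 of 6 were called higher (Mylpf, Myl1 and Myl4) and 3 lower (Myl2, Myl3 and Myl7), where 16.5% of all tested genes were higher and 19% lower. Without CM replicate 1 the count was 3 higher and 2 lower, since Myl7 was no longer called. It was 2 higher and 3 lower without CM replicate 2 or 3, where Myl4 was lost, and 2 higher and 2 lower without any 1 of the CiCM arrays, where both were lost. The calls of Mylpf and Myl1 (higher) and of Myl2 and Myl3 (lower) held in each of these.

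**Figure D2:**
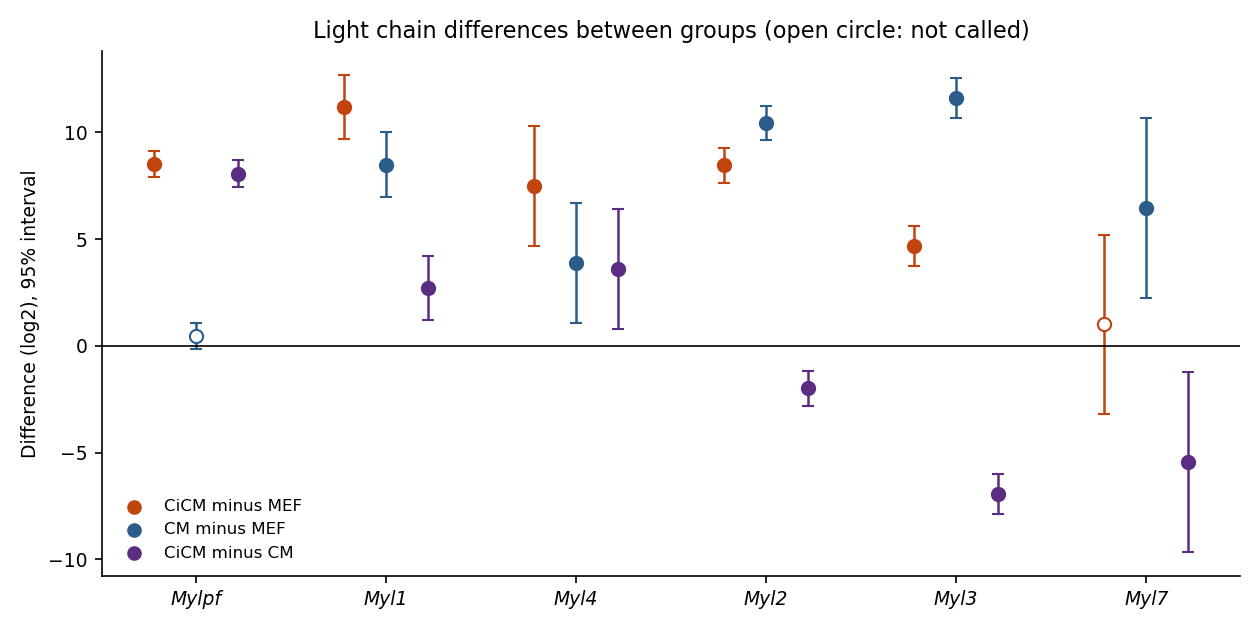
Log2 difference of each light chain gene in the 3 comparisons, with the 95% interval of the limma fit; filled circles were called and open circles were not. For CiCM minus CM, Mylpf, Myl1 and Myl4 lie above 0 and Myl2, Myl3 and Myl7 below it, with the widest intervals for Myl4 and Myl7.

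The members fell into an order of levels that differed from gene to gene. For Mylpf the order was CiCM, then CM and MEF, whose arrays overlapped and which were not called apart. For Myl1 it was CiCM, CM and MEF, each called against the next. For Myl4 the means had that order too, but the CiCM and CM arrays overlapped. For Myl2 and Myl3 it was CM, CiCM and MEF, each called against the next, and for Myl7 it was CM, then CiCM and MEF, whose arrays overlapped and which were not called apart.

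Spread within groups also set the members apart. Over the 3 CM arrays Myl7 ranged over 9.07 and Myl4 over 6.57, the 4th and 15th widest ranges among 12559 tested genes, whose median CM range was 0.46. Myl1 ranged over 2.79, a width reached by 3.08% of tested genes, while Mylpf, Myl2 and Myl3 ranged over 0.53, 0.59 and 0.50. Replicate 1 was the highest CM array for Myl7, Myl4 and Myl1 and the lowest for Myl2, Myl3 and Mylpf. Over the CiCM arrays the range was 0.13 to 0.20 for Mylpf, Myl1, Myl4 and Myl2, 0.49 for Myl7 and 1.04 for Myl3, against a median of 0.31 over all tested genes.

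**Figure D3:**
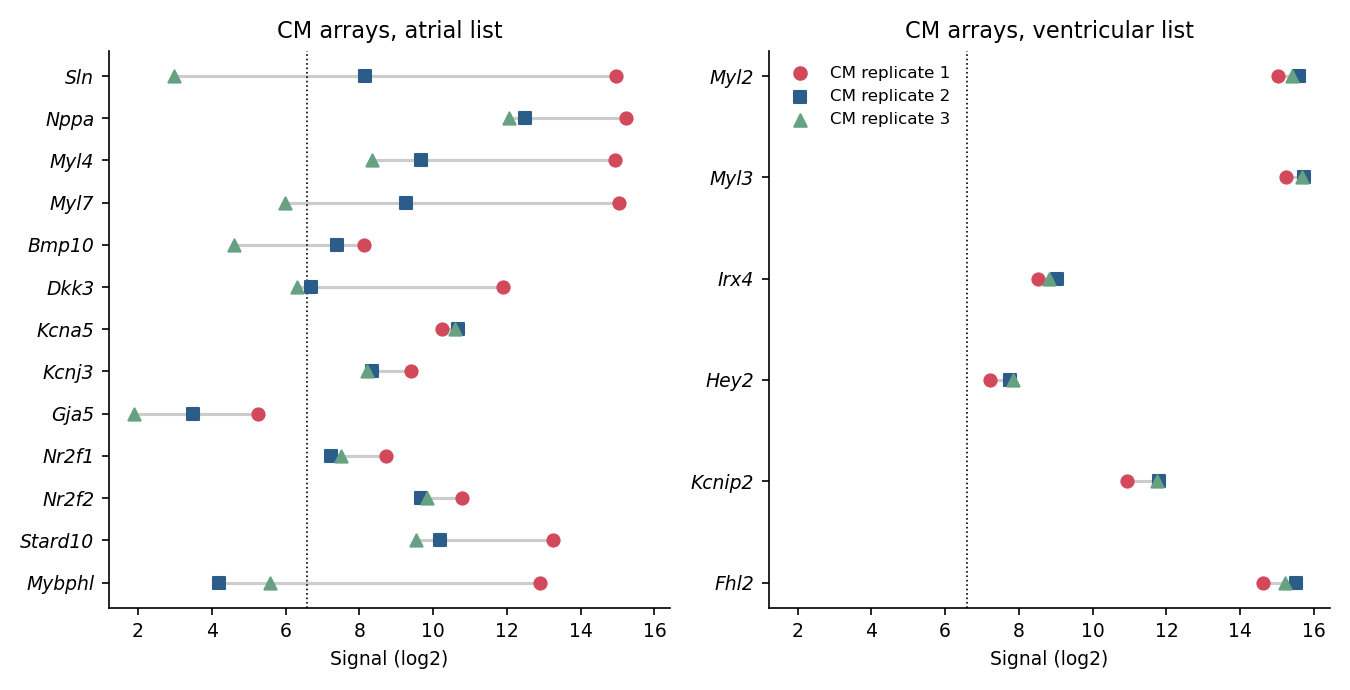
Log2 signal on the 3 CM arrays of the genes in the atrial list (left) and the ventricular list (right) that the array measured, light chains included; grey lines join the lowest and highest array and the dotted line is the median of the table. In the atrial list replicate 1 is highest for every gene but Kcna5, and in the ventricular list it is lowest for every gene.

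Genes most like each member were found by the root mean square difference of profiles of log2(signal + 32) over the 9 arrays, each less its own mean. Nearest to Mylpf were Myh1 (0.36), Myh3 (0.37) and Mybph (0.37), where the median tested gene stood at 3.78. Nearest to Myl2 were Cox8b (0.17), a muscle form of a cytochrome oxidase subunit, Myom2 (0.42), an M-band protein, and Actn2 (0.45), the Z-disc alpha-actinin. Nearest to Myl3 were Dsp (0.75), a protein of cell junctions, Myh6 (0.76), the heart's alpha-myosin, and Tnni3 (1.02), the cardiac troponin I.

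The other 3 chains varied more within CM. Nearest to Myl1 were Myot (0.89), a Z-disc protein, Klhl41 (1.00) and Synpo2l (1.06), and nearest to Myl4 were Car3 (0.60), a carbonic anhydrase, Myh7 (1.27), the slow myosin, and Pdlim3 (1.49). Nearest to Myl7 were Ucp1 (0.68), the uncoupling protein of brown fat, Adipoq (1.02), the fat cell hormone adiponectin, and Cyp2e1 (1.35). On the deposited log2 scale Ucp1 was at 13.27, 6.60 and 3.64 and Adipoq at 13.50, 6.21 and 5.09 in CM replicates 1 to 3. In a list of 12 fat cell genes written after these values were seen, 6 of 8 tested genes were highest in CM replicate 1. The summed signal of the 10 on the array was 98859, 89870 and 85648 in CM replicates 1 to 3, 2329 to 2671 in CiCM and 4089 to 4200 in MEF. Lpl (15.03, 15.59 and 15.42) and Fabp4 (15.00, 15.20 and 15.25) were the brightest of them in CM replicates 1 to 3. Neither was highest in replicate 1. Lpl and Fabp4 make up most of each CM sum. The sums thus follow these genes, are no measure of fat, and can hide differences in dimmer genes such as Ucp1 and Adipoq. Of 7 macrophage markers, 6 were also highest in CM replicate 1. Their summed signal was 10165, 8636 and 8356 in CM replicates 1 to 3, 1282 to 1692 in CiCM and 9198 to 9514 in MEF. The part of atrial cells, of fat or of macrophages in the CM values of Myl4 and Myl7 was not tested.

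Other myosin light chains, those of smooth muscle and of non-muscle cells among them, were counted beside the 6 genes. In CiCM against MEF, none of the 5 tested genes (Myl6, Myl6b, Myl9, Myl12a and Myl12b) was called higher and 1 was called lower (Myl6), with a median of -0.50. In CM against MEF the count was 0 higher and 1 lower (Myl9, median 0.09), and in CiCM against CM it was 1 higher (Myl9) and 1 lower (Myl6, median -0.30). The shares of all tested genes called higher and lower were 11.6% and 12.2%, 22.1% and 21.8%, and 16.5% and 19%, in the same order. With 5 genes, counts of 0 or 1 lie near those shares. Myl6, the essential chain of smooth muscle and non-muscle myosin, was at 8.30, 8.36 and 8.45 in CiCM, 9.78, 9.37 and 9.75 in CM, and 9.55, 9.65 and 9.63 in MEF. It fell in CiCM by 1.24 ± 0.13 against MEF (SE; limma adjusted p = 2.42e-05), and CiCM lay below every other array. Another 2 probe sets of Myl6 carry several symbols and were not used.

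Myl9, the regulatory chain of smooth muscle, was at 12.97, 12.93 and 12.50 in CiCM, 12.43, 10.35 and 10.67 in CM, and 13.81, 13.83 and 13.76 in MEF. MEF was highest on every array, and CM replicate 1 stood above the other CM arrays here too. CiCM minus MEF was -1.0 ± 0.42 (SE; limma adjusted p = 0.0689), CM minus MEF was -2.65 ± 0.42 (limma adjusted p = 0.000204) and CiCM minus CM was 1.65 ± 0.42 (limma adjusted p = 0.00552). Without CM replicate 1 these were -1.0 (limma adjusted p = 6.42e-05, just short of the difference of 1), -3.29 and 2.29, the others called as before. The non-muscle regulatory chains Myl12a and Myl12b differed by -0.01 and -0.12 for CiCM minus MEF and by 0.29 and 0.09 for CM minus MEF, and neither was called in any comparison. Myl6b differed by -0.50 and 0.85 in those comparisons and was not called, and Myl10, at means of 4.98 in CiCM, 4.85 in CM and 3.73 in MEF, was under the filter. Myl5 had no probe set with its symbol alone.

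The kinases and the phosphatase that act on the regulatory chain were tested gene by gene. Of 11 tested genes, 3 were higher and 1 was lower in CiCM than in MEF (median 0.26), 4 were higher and 2 lower in CM than in MEF (median 0.40), and 1 was higher and 4 were lower in CiCM than in CM (median -0.69). Of all tested genes, 11.6% and 12.2%, 22.1% and 21.8%, and 16.5% and 19% were called higher and lower in the same comparisons, so several of these counts lay near those shares. Without CM replicate 1 the counts were 4 and 1 (Mylk2 added), 5 and 2 (Ppp1cb added) and 1 and 4. Mylk3, the cardiac light chain kinase, was at 5.94, 6.52 and 6.20 in CiCM, 13.34, 13.06 and 13.04 in CM, and 5.27, 5.58 and 3.89 in MEF. The CM arrays stood far above both other groups. Mylk3 was lower in CiCM than in CM by 6.93 ± 0.37 on the log2 scale (SE; limma adjusted p = 1.09e-07), and CiCM exceeded MEF by 1.31 ± 0.37 (limma adjusted p = 0.0131), or by 0.74 with 32 added.

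Mylk4, a kinase of the same family, was at 9.28, 9.58 and 9.38 in CiCM, 12.20, 12.00 and 12.36 in CM, and 3.59, 5.64 and 1.89 in MEF. CiCM lay between CM and MEF with no overlap. It rose in CiCM by 5.71 ± 0.69 over MEF (SE; limma adjusted p = 6.40e-05), or 3.82 with 32 added, and was lower in CiCM than in CM (-2.77 ± 0.69, limma adjusted p = 0.00513). Mylk2, the skeletal muscle kinase, was at 7.38, 7.62 and 7.49 in CiCM, 6.82, 4.65 and 6.74 in CM, and 6.57, 6.27 and 4.16 in MEF. The CiCM arrays were the highest, but CiCM minus MEF (1.83 ± 0.71, SE; limma adjusted p = 0.0518) and CiCM minus CM (1.43, limma adjusted p = 0.100) were not called. Mylk, the kinase of smooth muscle and non-muscle cells, was lower in CM than in MEF (-1.46, limma adjusted p = 7.71e-07) and higher in CiCM than in CM (1.22, limma adjusted p = 5.03e-06), with -0.24 for CiCM minus MEF (limma adjusted p = 0.100).

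Among phosphatase genes, Ppp1r12b, the targeting subunit of striated muscle, was at 10.29, 10.06 and 10.60 in CiCM, 11.75, 11.58 and 12.10 in CM, and 8.35, 8.20 and 8.33 in MEF. It followed the order of Myl2 and Myl3, with 2.02 for CiCM minus MEF, 3.51 for CM minus MEF and -1.49 for CiCM minus CM, all called. Ppp1r14a, a phosphatase inhibitor of smooth muscle, was lower in CiCM (-2.77) and in CM (-1.89) than in MEF. Rock1, a kinase that restrains the phosphatase, was higher in CM than in MEF (1.40) and lower in CiCM than in CM (-1.38), with 0.03 for CiCM minus MEF. Ppp1cb (the catalytic subunit), Ppp1r12a, Ppp1r12c and Dapk3 differed by less than 1 in every comparison, and Rock2 had no probe set with its symbol alone.

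The heavy chains and thick filament proteins that the light chains work with were counted as a list of 13 tested genes. CiCM exceeded MEF in 11 of them (median difference 9.77), and CM exceeded MEF in 8 (median 3.39), with none called lower. Of all tested genes, 11.6% were called higher and 12.2% lower in CiCM against MEF, and 22.1% and 21.8% in CM against MEF. Of the 8, only 5 also differed by at least 1 with 32 added, since Myh4, Myh8 and Mybpc1 were dim in both groups, and 9 were called without CM replicate 1. In CiCM against CM, 9 were higher and 2 lower (Myh6 and Mybpc3), as they were without CM replicate 1. Of all tested genes, 16.5% were higher and 19% lower there. The differences of Myh8, Mybph, Myh3 and Myh1 were 10.73, 9.74, 9.53 and 9.51 against dim CM signals, and with 32 added they were 8.81, 7.90, 8.31 and 8.16, so their order depends on the scale.

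**Figure D4:**
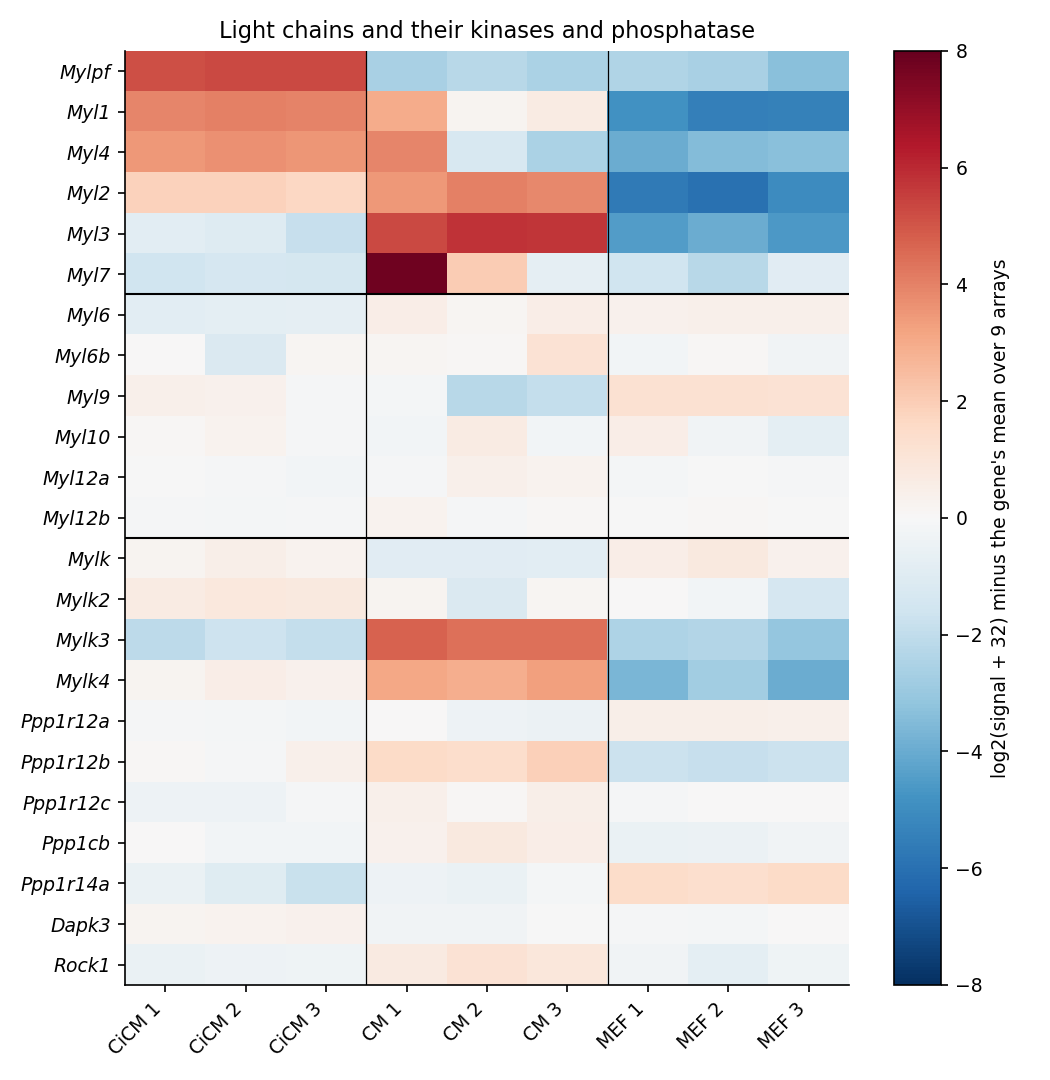
Level of each light chain (top), other light chain (middle) and kinase or phosphatase gene (bottom) on the 9 arrays, as log2(signal + 32) less the gene's mean over the arrays, so that colours compare arrays within a row only. Mylpf is high in the 3 CiCM arrays, Myl3 and Mylk3 in the 3 CM arrays, and Myl7 is highest in CM replicate 1.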

How the data were processed

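Labelled RNA of each sample was hybridised to a 1-colour array, per the labels' protocols. The authors deposited log2 signals of 45101 probe sets, and the submitters' processing notes name MAS5 without a version. On the linear scale, the mean after trimming 2% at each end came to 500.003 on all arrays, so the arrays had been scaled to a common target. Detection calls and batches were not analysed here, and groups and batches cannot be told apart.

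Gene symbols were taken from the platform annotation held by GEO. Of the genes, 18032 were found in RefSeq by their identifier, with the same symbol. Each gene stands for one probe set, that of the highest mean among those with 1 symbol, and a gene stayed in if a group mean reached 6.58. Differences were tested with limma (version 3.58.1, R 4.3.3, variance trend, 2-sided) in 1 fit of 9 arrays, adjusted by Benjamini-Hochberg over 12559 genes. Each p-value sets a difference against a within-group spread of that gene that was estimated from all 9 arrays. The spread of the group not compared thus enters each SE and p-value, and precision is limited by how few arrays there are. An exact permutation test of 3 against 3 cannot go below p = 0.1. The fit was tested on simulated data.

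The light chains, lists, tests and alternatives were chosen with earlier results of these data known. Named genes are the 6 light chains, other light chains, their kinases and phosphatase, up to 4 called thick filament genes by size and the 3 nearest genes of each light chain. Genes in the fat cell list, and Kcna5, Ryr2, Nkx2-5, Tnni3, Pln, Ncam1, Mybpc3 and the dim heavy chain genes, were named after their values were seen. So were Tnnt2, Actc1, Tnnc1, Fhl2, Dkk3, Nr2f1, Nr2f2 and Stard10. The lists without CM replicate 1 or with 32 added were alternatives chosen after seeing the data. Alternatives changed the added constant, the filter, the scaling, the choice of probe sets, the model and the arrays included. Promoters come from RefSeq, GRCm38.p6. Plots used matplotlib 3.10.9 (Python 3.11.15).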

Additional observations from a re-analysis of the deposited data

How the results depend on the processing

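Over 23 alternatives each, the calls of Mylpf, Myl1, Myl2 and Myl3 and the call of Myl4 in CiCM against MEF kept their direction and their side of the threshold wherever the light chain was called, as did Myl7 in CM against MEF. Deviations from group means correlated at -0.02 to 0.07 for same-numbered samples and at -0.04 to 0.03 for differently numbered ones. The highest value was for CiCM and CM replicate 3, and such values cannot exclude pairing by replicate number. With the number as a replicate block, 2978, 5508 and 4434 genes were called in CiCM against MEF, CM against MEF and CiCM against CM. No light chain call changed. Mylpf in CM minus MEF, not called, turned to -0.35 with arrays levelled on their hybridisation controls. Myl7 in CiCM minus MEF ranged from -0.34 to 2.01 when 1 array was left out. Myl4 in CM minus MEF ranged from 1.91 to 5.19 then and lost its call without MEF replicate 1. For Myl4 in CiCM minus CM the call was lost with probe sets averaged (2.25, limma adjusted p = 0.0618) and without a variance trend (3.60, limma adjusted p = 0.0584), and the range without 1 array was 2.28 to 5.57. For Myl7 in CiCM minus CM it was lost without a variance trend (-5.44, limma adjusted p = 0.0547) and with array weights (-4.44, limma adjusted p = 0.0690), and the range was -7.49 to -2.96. The causes were not tested.

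Counts over all genes moved by over 1.5 times from 2987, 5515 and 4462 with every probe set a feature (6353, 12098 and 9606), with no minimum difference (6529, 8790 and 8089) and, for CiCM against MEF, with a larger constant added to the linear signals (1900). Levelling on hybridisation controls shifted the median differences of all genes to -0.27, -0.88 and 0.58, and centring on array medians to -0.09, -0.43 and 0.30. Calls were higher in 48.6%, 50.4% and 46.5% of cases, against 35.3%, 21.4% and 75% with hybridisation controls, and 34.6% and 62.9% in the comparisons with CM when centred. Signals under 6.58 limit the differences of Mylpf, Myl1, Myl2, Myl3 and Myl7 from MEF and that of Myl7 between CiCM and CM.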
